A study of Rattus norvegicus with 6 samples.

Results

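The potassium channel genes of the rat pulmonary vein (PV) were taken as the genes of the deposited expression table whose symbol begins with Kcn and whose mean expression over the 6 libraries was above 0. The rule found 88 of the 17833 genes of the table. By symbol they fell into 37 voltage-gated pore subunits (Kcna, Kcnb, Kcnc, Kcnd, Kcnf, Kcng, Kcnh, Kcnq, Kcns, Kcnv), 15 inward rectifiers (Kcnj), 12 two-pore channels (Kcnk), 7 calcium-activated channels (Kcnma, Kcnn and Kcnt, of which the Kcnt channels are gated by sodium) and 17 auxiliary genes that form no pore of their own (Kcnab, Kcne, Kcnip, Kcnmb, Kcnrg). Bulk RNA-seq compared PVs of 3 rats that had bilateral pulmonary vein banding (BPVB group) with PVs of 3 sham-operated rats (sham group). All rats were wild-type animals of the SD strain (Sprague-Dawley) operated on at postnatal day 1 and sampled at postnatal day 21, and the sham operation opened the chest without constricting the veins. The tissue was the PV of the right upper lobe, and the rats of each group were drawn at random from a larger cohort. The question was which genes change in the vein upstream of a band that narrows it.

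Potassium channels let potassium ions leave the cell and hold the membrane at a negative voltage. Their opening relaxes vascular smooth muscle by closing voltage-dependent calcium channels, and it ends the action potential of cardiac myocytes. The wall of the rat PV holds both smooth muscle and a sleeve of atrial-type myocardium, so channels of both cell types can be measured in 1 piece of tissue.

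Expression was given as FPKM, the number of sequenced fragments of a gene divided by its length and by the number of fragments of the library, which allows levels of different genes to be compared per length. The libraries held 26078189 to 29725808 fragments in the BPVB group and 23439506 to 23821184 in the sham group. Replicates differed by more than the counting noise in every pair of libraries of a group, with a mean chi-square per gene of 4.6 to 6.45 where noise alone would give 1. The marker genes of the labelled tissue were high: the summed FPKM of 7 atrial myocardium markers was 14435 to 14857 in the BPVB group and 19084 to 19450 in the sham group, and that of 6 smooth muscle markers was 3883 to 3932 and 4206 to 4286. In such bulk tissue, fewer cells of a type and less RNA per cell cannot be told apart.

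The summed FPKM of the 88 genes was nearly the same in both groups, and the make-up of the sum differed. It was 289, 283 and 293 in the 3 BPVB rats and 291, 291 and 286 in the 3 sham rats, and these ranges overlapped. The voltage-gated sum was 65.2, 63.1 and 65.3 in the BPVB group against 72.6, 73.5 and 71.9 in the sham group, and the calcium-activated sum was 7.01, 6.33 and 7.36 against 7.73, 8.06 and 7.88. In both families every BPVB rat lay below every sham rat. Without Kcna5 the voltage-gated sum over the other 36 genes was 57.4, 55.1 and 57.3 against 54.2, 54.7 and 55.6, so that the rest of the family was not lower. The two-pore sum was 53.5, 53.8 and 58.6 against 51.5, 51.6 and 52.9, and the auxiliary sum was 61.2, 61.4 and 64 against 57.3, 56.3 and 54.1. In these families every BPVB rat lay above every sham rat. Without Kcnk3 the other 11 two-pore genes summed to 21, 19.4 and 23.1 against 25.2, 25.5 and 28.1, the opposite direction, and without Kcnip2 the other 16 auxiliary genes summed to 30.8, 34.2 and 31.5 against 33.7, 31.4 and 30.2, with overlap. The inward rectifier sum was 102, 98.2 and 97.9 against 102, 102 and 99.2, with groups that overlapped. These sums carry no test.

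**Figure D1:**
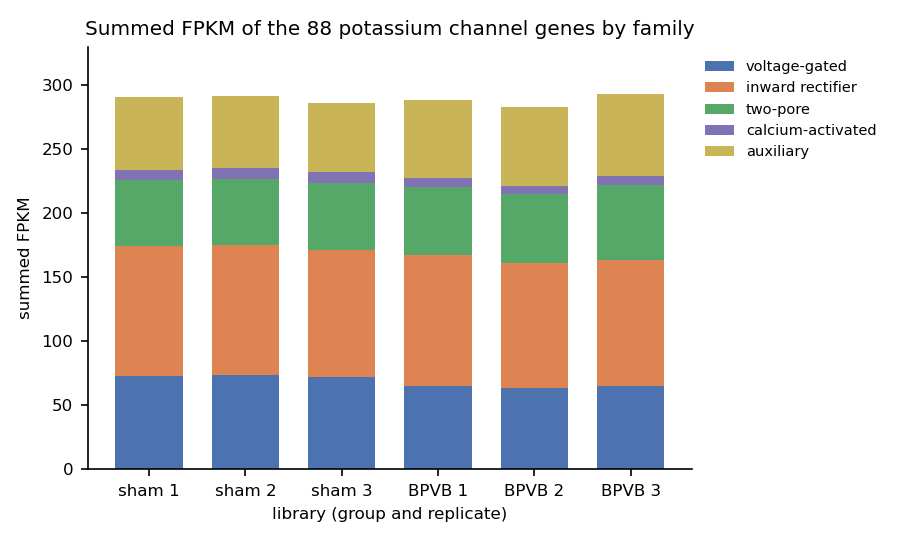
Summed FPKM (y axis) of the potassium channel genes in each library (x axis), stacked by family. The height of the bars stays between 283 and 293, while the voltage-gated part, which includes Kcna5, is shorter in the 3 BPVB libraries and the two-pore part, which includes Kcnk3, and the auxiliary part are taller.

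Expression was concentrated in a few genes. The mean FPKM over all libraries was at least 10 for 11 genes and at least 1 for 30, and the 10 highest genes held 68.8% ± 0.71 (SD, n = 3) of the summed FPKM in the BPVB group and 68.3% ± 0.48 (n = 3) in the sham group. In order of mean FPKM the highest were Kcnk3 at 29.9, Kcnip2 at 27.1, Kcnj5 at 25.5, Kcnj8 at 24.7, Kcnj3 at 18.5, Kcnj11 at 17.5, Kcng2 at 16.3, Kcnh2 at 13.4, Kcna5 at 12.9, Kcnk2 at 12.2 and Kcnmb1 at 10.8. These are background channels, subunits of the acetylcholine-activated and ATP-sensitive channels, repolarising channels of atrial myocytes with their partners, and the smooth muscle subunit of the large-conductance calcium-activated channel.

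**Figure D2:**
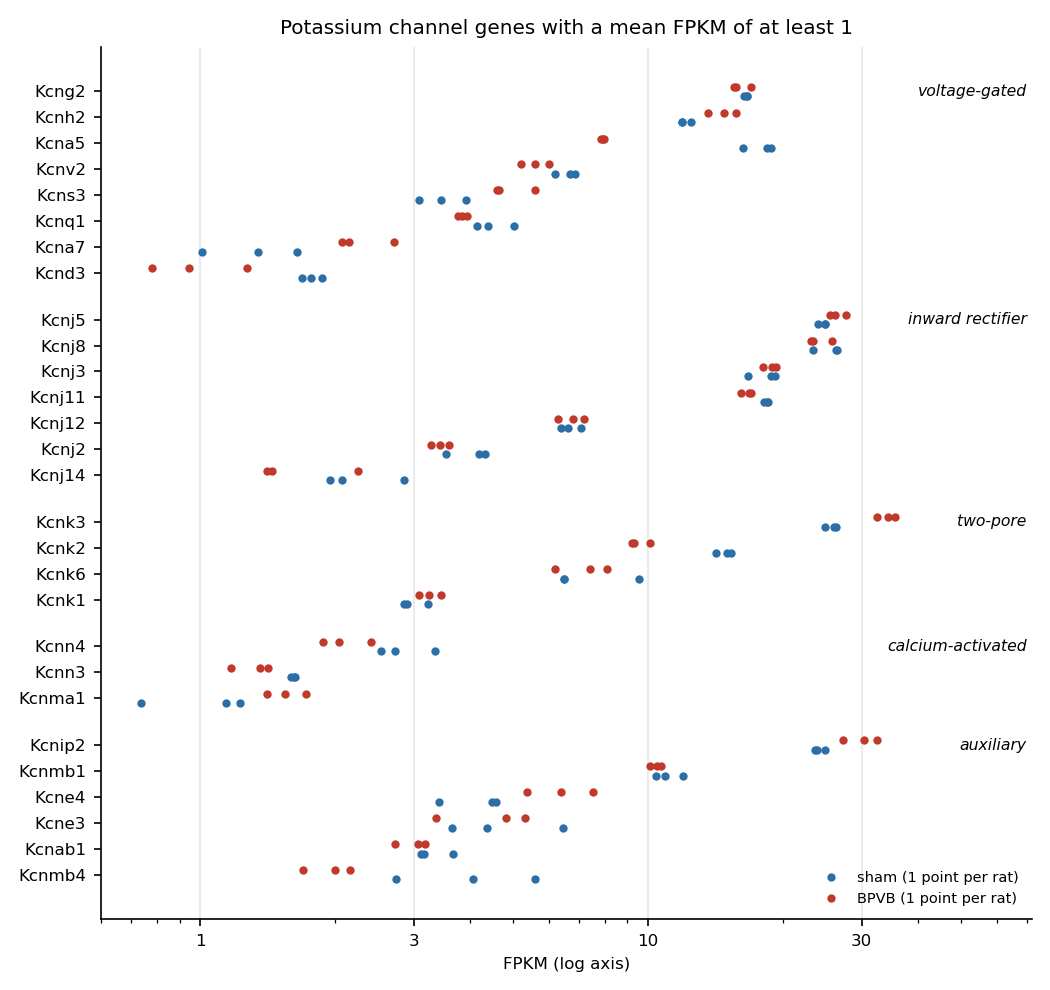
FPKM (x axis, log scale) of potassium channel genes with a mean of at least 1, ordered by level within each family (y axis), with 1 point for each BPVB rat and each sham rat. The points of Kcna5 and Kcnk2 lie apart with the BPVB rats lower, those of Kcnk3 lie apart with the BPVB rats higher, and those of Kcnj3 and Kcng2 lie on top of each other.

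Of the 88 genes, 60 had a mean FPKM of at least 0.1 and were tested with limma on log2(FPKM + 0.5) together with every other such gene of the table. Expression was higher in the BPVB group for 10 genes and lower for 7 at a Benjamini-Hochberg adjusted p under 0.05. Among all 15150 genes tested, 17.2% were higher and 14.3% were lower by the same rule, so that the 28.3% of potassium channel genes called in either direction was near the 31.5% over all genes. The median log2 fold change was -0.04 over the 60 genes and 0.02 over all genes tested. Adding an absolute log2 fold change above 1 left 2 genes, Kcne5 (higher) and Kcna5 (lower), and that rule called 2.24% of all genes as higher and 1.03% as lower. In all 17 called genes the FPKM of the 2 groups did not overlap, and groups without overlap were found in 30 of the 60 tested genes (50%), against 45.6% of all 15150 genes tested. The added constant shrinks the fold change of genes with a low FPKM. The call of 8 genes held in each of 14 other settings of the analysis that gave a value: Kcna5, Kcnd3, Kcnk2 and Kcnmb4 were lower and Kcne2, Kcnh2, Kcnip2 and Kcnk3 were higher.

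**Figure D3:**
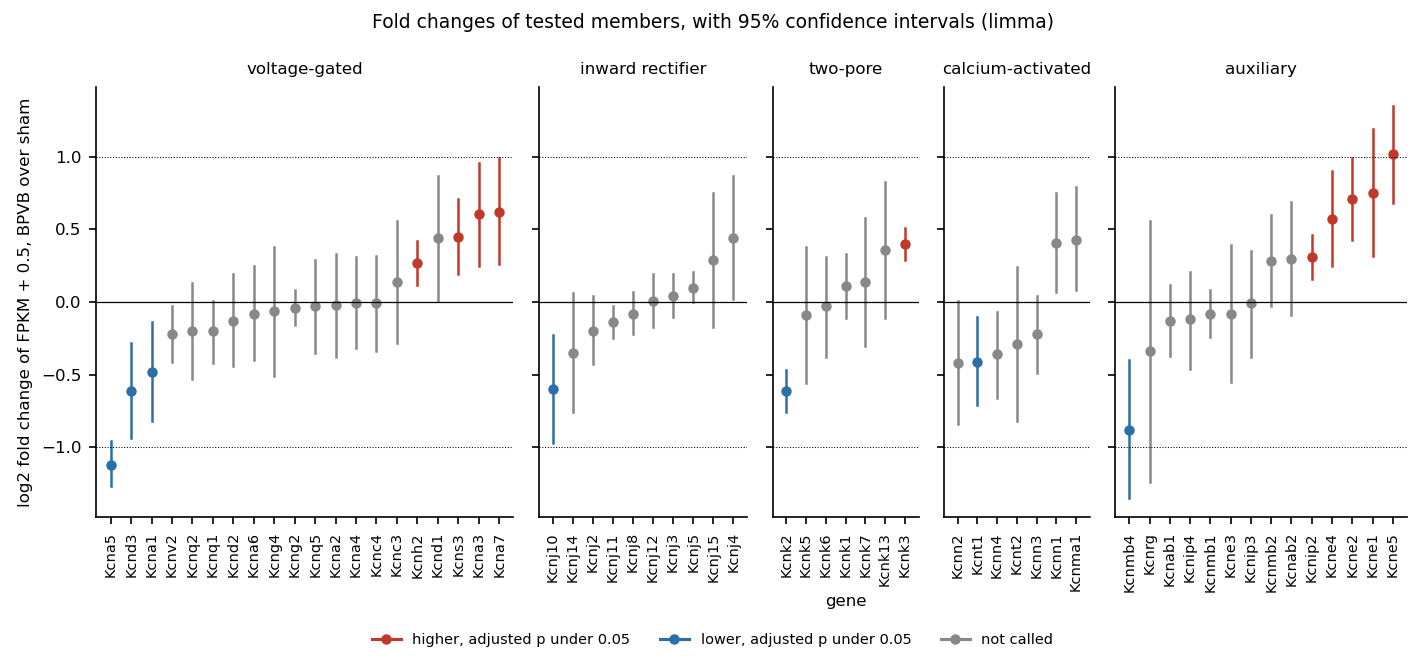
Log2 fold change of FPKM + 0.5 between the BPVB and sham groups (y axis) with its 95% confidence interval for tested genes (x axis), by family. Red genes were higher and blue genes lower at an adjusted p under 0.05, dotted lines mark a log2 fold change of 1 and -1, and the points of Kcna5 and Kcne5 lie beyond them.

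Promoter sequences of RefSeq (rat assembly GRCr8) were matched by gene number to 59 of the 88 genes, with 65 windows for the 250 bases before an annotated start. They are shown for the 5 genes of these 8 that had a window, since these are the genes whose difference held in all settings. Capitals mark the GC box GGGCGG and the CCAAT box CCAAT, searched on both strands, and lower case marks the rest. The Kcna5 window is on chr4:161043810-161044059 (minus strand), that of Kcnk2 on chr13:103494687-103494936 (minus strand, the first of 2 annotated starts), that of Kcnd3 on chr2:195626066-195626315 (plus strand), that of Kcnmb4 on chr7:54005102-54005351 (minus strand) and that of Kcnip2 on chr1:254613899-254614148 (minus strand).
Kcna5: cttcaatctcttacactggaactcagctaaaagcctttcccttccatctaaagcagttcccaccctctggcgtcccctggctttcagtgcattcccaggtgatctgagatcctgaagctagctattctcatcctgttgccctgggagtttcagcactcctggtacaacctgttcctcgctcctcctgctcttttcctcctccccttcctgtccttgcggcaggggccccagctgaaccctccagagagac
Kcnk2: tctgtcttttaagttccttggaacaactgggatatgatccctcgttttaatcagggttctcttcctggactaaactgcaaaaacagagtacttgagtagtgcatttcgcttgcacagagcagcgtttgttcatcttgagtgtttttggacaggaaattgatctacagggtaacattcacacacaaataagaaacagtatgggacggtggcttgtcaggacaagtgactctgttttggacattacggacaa
Kcnd3: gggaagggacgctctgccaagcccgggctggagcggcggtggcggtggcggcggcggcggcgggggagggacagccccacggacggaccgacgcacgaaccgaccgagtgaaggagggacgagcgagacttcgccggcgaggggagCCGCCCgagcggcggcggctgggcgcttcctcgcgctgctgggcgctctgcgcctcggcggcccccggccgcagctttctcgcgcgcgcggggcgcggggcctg
Kcnmb4: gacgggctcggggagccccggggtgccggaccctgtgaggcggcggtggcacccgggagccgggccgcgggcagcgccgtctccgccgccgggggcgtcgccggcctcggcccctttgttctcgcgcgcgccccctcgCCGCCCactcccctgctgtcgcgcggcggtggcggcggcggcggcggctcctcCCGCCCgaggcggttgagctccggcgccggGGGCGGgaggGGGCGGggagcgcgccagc
Kcnip2: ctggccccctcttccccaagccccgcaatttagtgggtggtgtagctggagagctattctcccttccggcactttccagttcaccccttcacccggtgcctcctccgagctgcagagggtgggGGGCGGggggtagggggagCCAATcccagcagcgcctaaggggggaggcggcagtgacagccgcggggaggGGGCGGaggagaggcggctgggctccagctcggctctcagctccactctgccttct

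The windows of Kcna5 and Kcnk2 held neither box, that of Kcnd3 held 1 GC box, that of Kcnmb4 held 4 and that of Kcnip2 held 2 with a CCAAT box between them. The genes that were lower in the BPVB group differed among themselves in these letters, and the share of G and C ran from 42% in Kcnk2 to 84.4% in Kcnmb4. A GC box was found in 49.2% of the 65 potassium channel windows and in 30.5% of 33469 windows of all genes, a CCAAT box in 26.2% and 34%, a TATA box (TATAAA) in 3.08% and 12.9%, an E-box (CACGTG) in 3.08% and 5.59% and a GATA motif (AGATAA) in 10.8% and 10.3%. These matches describe the letters and carry no test.

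Among the voltage-gated genes, 22 of 37 were tested, 4 were higher and 3 were lower (median log2 fold change -0.05). Kcna5, the pore of the ultrarapid repolarising current of atrial myocytes and a channel of pulmonary vascular smooth muscle, had the largest log2 fold change of FPKM + 0.5 among them. Kcna3 and Kcna1, with far fewer fragments, had larger ratios of mean FPKM (3.35-fold higher and 2.91-fold lower, against 2.25-fold lower for Kcna5). The Kcna5 FPKM was 7.86, 7.99 and 7.95 in the 3 BPVB rats and 18.4, 18.8 and 16.3 in the 3 sham rats. All BPVB rats lay far below all sham rats. The mean was 7.93 ± 0.07 (SD, n = 3) against 17.8 ± 1.3 (n = 3). The mean fell by 55.5%, with a log2 fold change of -1.12 (SE 0.068, limma adjusted p = 4.5e-06) that stayed between -1.18 and -1.07 in all 14 settings. Each value rested on 714 to 1510 fragments, and the promoter window shown above for Kcna5 held none of the 5 motifs searched. Kcna5 made up 24.5% of the voltage-gated sum in the sham group and 12.3% in the BPVB group.

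Kcnd3, a pore of the transient outward current of early repolarisation with a GC box in its promoter window, was also lower. Its FPKM was 0.782, 1.27 and 0.947 in the BPVB group and 1.69, 1.87 and 1.77 in the sham group, with no overlap (log2 fold change -0.61, SE 0.15, limma adjusted p = 0.012). Kcnip2, the calcium-binding partner that brings Kcnd channels to the membrane, went the other way. Its FPKM was 30.4, 27.2 and 32.5 in the BPVB group and 23.6, 24.9 and 23.8 in the sham group, again with no overlap (log2 fold change 0.31, SE 0.066, limma adjusted p = 0.0069). The ratio of Kcnip2 to Kcnd3 FPKM was 38.8, 21.4 and 34.4 in the BPVB rats and 13.9, 13.3 and 13.4 in the sham rats. The related pores Kcnd1, named after its values were seen, and Kcnd2 were low and not called by limma on FPKM, with a mean FPKM of 0.798 ± 0.29 against 0.447 ± 0.11 and of 0.0808 ± 0.015 against 0.134 ± 0.026 (n = 3 each). Kcnd1 was called higher by limma-voom on fragments (log2 fold change 0.81, adjusted p = 0.047) and without the second BPVB library (0.61).

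Kcnh2, the pore of the rapid delayed rectifier, was higher in the BPVB group. Its FPKM was 14.8, 13.6 and 15.7 against 11.9, 11.9 and 12.5, so that the lowest BPVB rat lay above the highest sham rat (log2 fold change 0.27, SE 0.066, limma adjusted p = 0.013). Kcnq1, the pore of the slow delayed rectifier, was not called by limma on FPKM, with 3.76, 3.85 and 3.95 in the BPVB group against 4.15, 4.4 and 5.02 in the sham group. The groups of Kcnq1 did not overlap, and its log2 fold change of -0.20 had a 95% interval from -0.42 to 0.01 (limma adjusted p = 0.14). By limma-voom on fragments Kcnq1 was called lower (-0.23, adjusted p = 0.015).

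Kcng2, Kcnv2 and Kcns3 belong to the electrically silent subunits, which pass no current alone and modify other voltage-gated channels. Kcns3, a silent subunit of pulmonary artery smooth muscle, rose from 3.46, 3.93 and 3.09 in the sham group to 4.66, 5.6 and 4.61 in the BPVB group (log2 fold change 0.45, SE 0.12, limma adjusted p = 0.016). It lost the call without the second BPVB library (0.37) and without the third sham library (0.38). Kcng2, the highest voltage-gated gene, had 17, 15.6 and 15.7 in the BPVB group and 16.6, 16.4 and 16.6 in the sham group, and its log2 fold change of -0.04 had a 95% interval from -0.16 to 0.08. Kcnv2 had a mean of 5.61 ± 0.4 against 6.59 ± 0.35 (n = 3 each, limma adjusted p = 0.083), and it was called lower by limma-voom on fragments (-0.23, adjusted p = 0.034) and with quantile normalization (-0.26). The Kcnv2 gene overlaps Pum3 in GRCr8, and reads of overlapping genes may be shared, since the counting is not stated to use strand.

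All 7 Kcna genes were tested, and their changes went both ways. In GRCr8, Kcna5, Kcna1 and Kcna6 lie side by side on chromosome 4, with log2 fold changes of -1.12, -0.48 and -0.08. Kcna6 is named here for its place alone, and its value ran from -0.17 to 0.02 in the other settings. Kcna1, a channel of nerve axons, had an FPKM of 0.0541, 0.157 and 0.178 in the BPVB group and 0.42, 0.405 and 0.308 in the sham group (12 to 83 fragments, SE 0.15, limma adjusted p = 0.038), a call that was kept in 7 of 13 settings and was lost when any library other than the third BPVB library was left out. Kcna3, known from T cells and macrophages, and Kcna2 are neighbours on chromosome 2, with log2 fold changes of 0.61 and -0.02.

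Kcna3 rested on 19, 16 and 28 fragments in the BPVB group and 3, 8 and 5 in the sham group (limma adjusted p = 0.017, SE 0.16). It lost the call in limma-voom on fragments (log2 fold change 1.74, adjusted p = 0.081), without the third BPVB library (0.52) and without the first sham library (0.53). Kcna7, a channel of heart and skeletal muscle, was higher with an FPKM of 2.08, 2.71 and 2.15 against 1.35, 1.01 and 1.65 (log2 fold change 0.62, SE 0.16, limma adjusted p = 0.016), and it lost the call without the second BPVB library (0.53). Kcnq5, a channel of vascular smooth muscle, was not called, with a mean FPKM of 0.13 ± 0.023 against 0.146 ± 0.043 (n = 3 each).

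**Figure D4:**
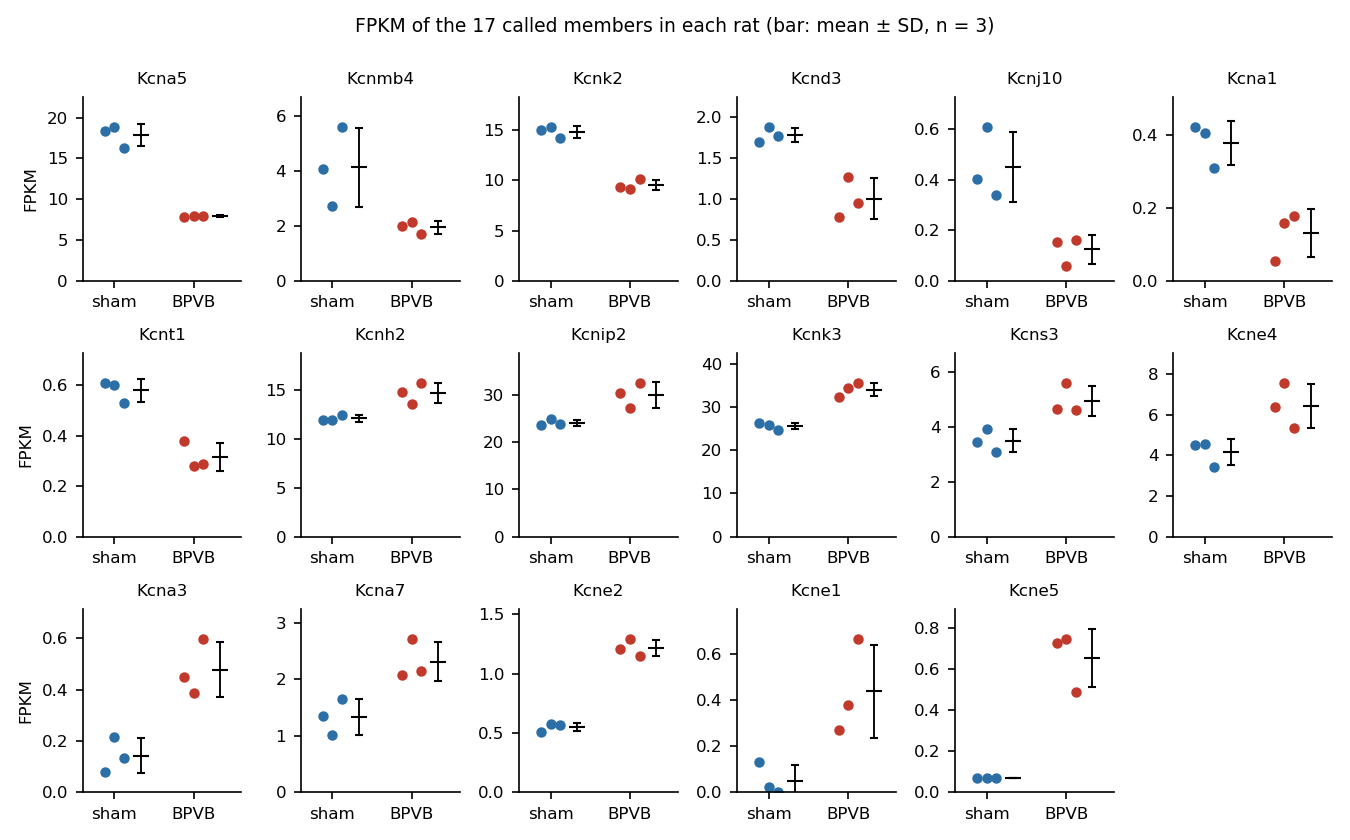
FPKM (y axis) of the 17 called genes in each sham and BPVB rat (x axis), ordered from the most negative to the most positive log2 fold change, with the mean and SD beside the points. The groups do not overlap in any panel, and the Kcna5 points of the BPVB group lie between 7.86 and 7.99.

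Of the inward rectifiers, 10 of 15 were tested, 0 were higher and 1 was lower by limma (median log2 fold change -0.03). In the higher direction, Kcnj4 was the 1 gene with an unadjusted p under 0.05 and the 1 gene called by limma-voom on fragments. The pair Kcnj3 and Kcnj5, which form the acetylcholine-activated channel of the atrium, was not called. Kcnj3 had an FPKM of 18.1, 18.9 and 19.3 in the BPVB group and 18.8, 16.7 and 19.2 in the sham group, and the groups overlapped. The 95% interval of its log2 fold change of 0.04 ran from -0.10 to 0.19. Kcnj5 had 27.7, 25.5 and 26.1 against 24, 24.8 and 24.8, with a log2 fold change of 0.10 (limma adjusted p = 0.13). The ratio of Kcnj3 to Kcnj5 was 0.711 ± 0.05 against 0.741 ± 0.061 (SD, n = 3 each).

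Kcnj8 and Kcnj11 form the pore of ATP-sensitive channels, which open when the energy state of the cell falls. Kcnj8, the vascular form, had an FPKM of 25.7, 23.1 and 23.3 in the BPVB group and 26.3, 26.4 and 23.4 in the sham group, with overlap and a log2 fold change of -0.08 (95% interval -0.22 to 0.07). Kcnj11 had 17, 16.8 and 16.1 against 18.5, 18.4 and 18.2. The Kcnj11 groups did not overlap, and the log2 fold change of -0.14 (SE 0.048) had a limma adjusted p of 0.055 and passed the threshold in 3 of 14 settings.

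The sulfonylurea receptors that complete these channels are not named Kcn. Abcc8, the form of pancreatic beta cells and rodent atrium, had an FPKM of 2.75, 2.31 and 3.14 in the BPVB group and 4.64, 4.65 and 4.24 in the sham group, a clear separation (log2 fold change -0.64, SE 0.12, limma adjusted p = 0.003). Abcc9, the form of smooth muscle and ventricle, had 38.5, 40.2 and 37.7 against 42.1, 41.1 and 41.3 (log2 fold change -0.10, limma adjusted p = 0.098). The ratio of Abcc9 to Abcc8 was 14, 17.4 and 12 in the BPVB rats and 9.09, 8.83 and 9.73 in the sham rats.

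Kcnj2 and Kcnj12 carry the strong inward rectifier current that sets the resting voltage. Kcnj2 had a mean FPKM of 3.44 ± 0.17 against 4.03 ± 0.42 (n = 3 each, limma adjusted p = 0.18), and Kcnj12 had 6.77 ± 0.46 against 6.71 ± 0.35. Nearly identical copies of Kcnj12 are known in mammals, so its value is uncertain. The gene that was lower was Kcnj10, a channel of glial cells, with an FPKM of 0.152, 0.0567 and 0.162 in the BPVB group and 0.404, 0.607 and 0.341 in the sham group. The call rested on 8 to 77 fragments (log2 fold change -0.60, SE 0.16, limma adjusted p = 0.021) and was lost without the second BPVB library (-0.52) and without the second sham library (-0.49). Kcnj4, a strong rectifier of brain named after its values were seen, had 30, 25 and 3 fragments in the BPVB group and 0, 1 and 0 in the sham group. The pooled rate of Kcnj4 was 49.9-fold higher in the BPVB group (exact 95% interval for counting error alone 8.62 to 2006), and with the third BPVB rat near the sham rats it was not called (limma adjusted p = 0.11). Without that rat it was called higher (log2 fold change 0.63).

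Of the two-pore genes, which pass a steady background current, 7 of 12 were tested, 1 was higher and 1 was lower (median log2 fold change 0.11). Both called genes were among the 11 highest potassium channel genes. Kcnk3, an acid-sensitive background channel of pulmonary vascular smooth muscle and atrial myocytes, had an FPKM of 32.5, 34.4 and 35.6 in the BPVB group and 26.3, 26 and 24.8 in the sham group. Kcnk2, a background channel opened by membrane stretch and lipids, had 9.32, 9.2 and 10.1 in the BPVB group and 15, 15.3 and 14.2 in the sham group. Neither gene had overlapping groups. The log2 fold change was 0.40 for Kcnk3 (SE 0.049, limma adjusted p = 0.00031) and -0.61 for Kcnk2 (SE 0.063, limma adjusted p = 0.00011), over 883 to 4132 fragments a library. The ratio of Kcnk3 to Kcnk2 was 3.48, 3.74 and 3.52 in the BPVB rats and 1.75, 1.7 and 1.75 in the sham rats. Kcnk3 rose from 49.5% to 61.7% of the two-pore sum.

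Kcnk6 and Kcnk1, weakly conducting channels, were not called. Kcnk6 had 7.43, 6.21 and 8.12 against 6.49, 6.51 and 9.55 (log2 fold change -0.03, 95% interval -0.38 to 0.31), and Kcnk1 had 3.09, 3.25 and 3.46 against 2.9, 2.86 and 3.22 (0.11, -0.11 to 0.33). Kcnk5, an alkaline-sensitive channel, had a mean of 0.585 ± 0.29 against 0.634 ± 0.15 (n = 3 each). The Kcnk2 and Kcnk6 genes overlap the predicted genes LOC120096345 and LOC103689966 in GRCr8. Those genes had a mean FPKM of 1.03 ± 0.16 against 2.32 ± 0.91 and of 0.785 ± 0.17 against 1.2 ± 0.27 (n = 3 each), well below the levels of the channels.

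All 7 calcium-activated genes were tested, 0 were higher and 1 was lower by limma (median log2 fold change -0.29). Kcnma1 and Kcnn1 were the 2 genes higher at an unadjusted p under 0.05, and limma-voom on fragments called 1, Kcnma1. Kcnma1, the pore of the large-conductance channel that relaxes smooth muscle, had an FPKM of 1.41, 1.55 and 1.72 in the BPVB group and 1.23, 0.738 and 1.14 in the sham group. These groups did not overlap (log2 fold change 0.43, SE 0.16, limma adjusted p = 0.065), and 1 of 14 settings called the gene. Its smooth muscle partner Kcnmb1 had 10.7, 10.1 and 10.5 against 12, 10.9 and 10.4, with overlap and a log2 fold change of -0.08 (95% interval -0.24 to 0.08). The Kcnmb1 gene overlaps Kcnip1 in GRCr8, and Kcnip1 had 7 fragments in all libraries.

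Kcnn4 and Kcnn3 are channels of endothelium, where their opening relaxes the vessel. Kcnn4 had 2.41, 2.04 and 1.88 against 2.73, 3.34 and 2.53 (log2 fold change -0.36, limma adjusted p = 0.065), and Kcnn3 had 1.17, 1.36 and 1.42 against 1.63, 1.62 and 1.6 (-0.22, limma adjusted p = 0.18). Every BPVB rat lay below every sham rat for both genes. Neither was called in the reported fit, while limma-voom on fragments called Kcnn3 lower (log2 fold change -0.30, adjusted p = 0.049) and quantile normalization called Kcnn4 lower (-0.45). Kcnn2, a channel of atrial myocytes, had a log2 fold change of -0.42 with overlapping groups (limma adjusted p = 0.13), and Kcnn1 had 0.41 without overlap (limma adjusted p = 0.067). Kcnn2 was called lower without the third BPVB library (-0.58), and Kcnn1 was called higher with no filter (0.41) and without the second BPVB library (0.52). Leaving out 1 library moved Kcnn2 between -0.58 and -0.25 and Kcnn1 between 0.31 and 0.52. Kcnt1, a sodium-activated channel of neurons, was called lower at 0.378, 0.28 and 0.287 against 0.608, 0.603 and 0.528 (log2 fold change -0.41, SE 0.13, limma adjusted p = 0.047), but only 5 of 13 settings kept the call, and it was lost when any 1 of the 6 libraries was left out.

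Among the auxiliary genes, 14 of 17 were tested, 5 were higher and 1 was lower (median log2 fold change 0.14). The Kcne genes, which encode single-span proteins that change the gating of Kcnq1, Kcnh2 and Kcna channels, made up 4 of the 5 that were higher, and the median over the 5 Kcne genes was 0.71. Over all genes tested the share called higher was 17.2%. Kcne4, an inhibitory partner of Kcnq1 and Kcna channels, had an FPKM of 6.4, 7.55 and 5.37 in the BPVB group and 4.49, 4.58 and 3.41 in the sham group (log2 fold change 0.57, SE 0.14, limma adjusted p = 0.015). Its call was lost without the second BPVB library (0.46). Kcne2, a partner of Kcnh2 and Kcnq1, had 1.21, 1.29 and 1.15 against 0.51, 0.575 and 0.566. The groups of Kcne2 stood well apart (log2 fold change 0.71, SE 0.12, limma adjusted p = 0.0022, 27 to 76 fragments).

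Kcne5 and Kcne1 had few fragments. Kcne5, an inhibitory partner of Kcnq1, had 12, 12 and 9 fragments in the BPVB group and 1 in each sham rat, or an FPKM of 0.73, 0.747 and 0.492 against 0.0683, 0.0693 and 0.0681. The pooled rate was 9.47-fold higher in the BPVB group, with an exact 95% interval of 2.97 to 48.3 for counting error alone. The log2 fold change of FPKM + 0.5 was 1.02 (SE 0.15, limma adjusted p = 0.00089), and a test of the fragments themselves gave 2.70 with a limma-voom adjusted p of 0.055. Kcne1, which joins Kcnq1 to form the slow delayed rectifier, had 14, 19 and 38 fragments against 6, 1 and 0, a pooled rate 8.73-fold higher (exact 95% interval 4.03 to 22.5). Its log2 fold change was 0.75 (SE 0.19, limma adjusted p = 0.016), and the call was lost without the third sham library (0.69). Kcne3, the remaining member, had 3.37, 4.83 and 5.32 against 6.47, 4.38 and 3.66, with overlap and a log2 fold change of -0.08. The ratio of Kcne4 to Kcna5 was 0.815, 0.944 and 0.676 in the BPVB rats and 0.244, 0.244 and 0.209 in the sham rats.

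The auxiliary gene that was lower was Kcnmb4, a subunit that slows the large-conductance calcium-activated channel and is best known from brain. Its FPKM was 2, 2.16 and 1.7 in the BPVB group and 4.07, 2.74 and 5.6 in the sham group. The groups did not overlap, although the sham rats were spread widely (log2 fold change -0.88, SE 0.21, limma adjusted p = 0.012, 51 to 135 fragments). Kcnab1 and Kcnab2, cytoplasmic partners of Kcna channels, were not called, with a mean of 2.99 ± 0.24 against 3.32 ± 0.32 and of 1.12 ± 0.15 against 0.83 ± 0.28 (n = 3 each).

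**Figure D5:**
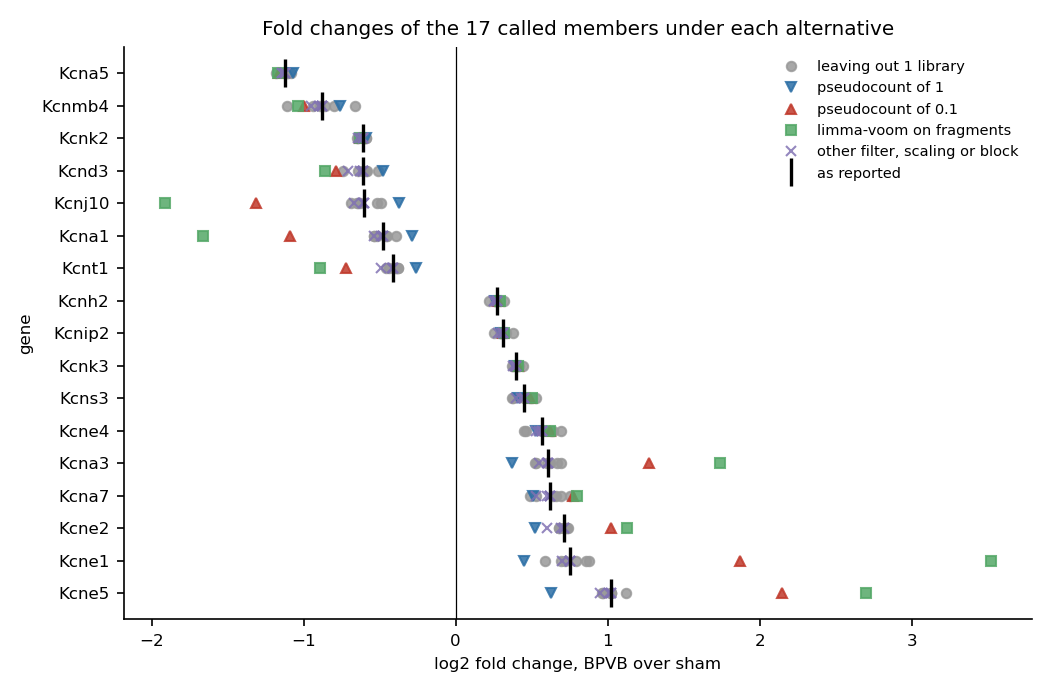
Log2 fold change between the BPVB and sham groups (x axis) of the 17 called genes (y axis) as reported and under each other setting, where limma-voom works on fragments and the other settings on FPKM. Kcna5, Kcnk2 and Kcnk3 move little, and the low genes Kcnj10, Kcna1, Kcna3, Kcne1 and Kcne5 spread with the constant added before taking logs.

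The other 28 genes were not tested because their mean FPKM was under 0.1, and none had more than 23 fragments in a library. They had 1 to 66 fragments over all libraries, and 12 of them had at most 10. They include 15 voltage-gated genes, 5 inward rectifiers, 5 two-pore genes and 3 auxiliary genes. Tested with no filter on FPKM, 1 of the 28 was called by limma, Kcnh8, which was lower with a log2 fold change of -0.35 (adjusted p = 0.04). Kcnh8, a voltage-gated channel best known from brain, had 0, 0 and 4 fragments in the BPVB group and 20, 6 and 16 in the sham group. The groups did not overlap, and the pooled rate was 12.2-fold higher in the sham group (exact 95% interval for counting error alone 4.42 to 46.8). Such counts were uneven, and all 17 fragments of Kcnh5, also chosen after its values were seen, came from the second sham library.

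Markers of several cell types moved between the groups beside the channels. Macrophage markers were higher for 6 of 6 genes (summed FPKM 652 to 675 in the BPVB group against 209 to 215). Kcna3, known from such cells and from T cells, was called higher. That call was kept in 10 of 13 settings and was lost in limma-voom on fragments. The sum of 4 T cell markers was 1.12 to 3.18 against 1.51 to 3.24, with overlap. Schwann cell markers were lower for 3 of 4 (39.5 to 39.8 against 94.8 to 99.1), with S100b higher, and peripheral neuron markers were lower for 7 of 8 tested (8.63 to 9.91 against 21.6 to 22.8), with Phox2a, Chat and Slc18a3 at 0 in all BPVB rats. Among channels described above as known from glia, nerve or brain, Kcnj10, Kcna1, Kcnt1 and Kcnmb4 were called lower, with the calls of Kcna1 and Kcnt1 kept in 7 and 5 of 13 settings. Kcnh8 was lower in the test with no filter, while Kcnj4 had more fragments in the BPVB group. Atrial myocardium markers were lower for 6 of 7 and higher for 1, Nppa, and their sum in the BPVB group was 0.763 of that in the sham group. For pores described above as atrial or of cardiac repolarisation, this ratio was 0.445 for Kcna5, 0.563 for Kcnd3 and 0.613 for Kcnn2. It was 0.852 for Kcnq1, 1.03 for Kcnj3, 1.08 for Kcnj5, 1.22 for Kcnh2, 1.33 for Kcnk3 and 1.25 for the partner Kcnip2. The related pores Kcnd2 and Kcnd1, not called, had 0.604 and 1.79, and Kcna7 of heart and skeletal muscle had 1.73. The Kcne partners had 0.931 for Kcne3, 1.55 for Kcne4 and 2.21 for Kcne2. Kcne1 and Kcne5, with few fragments, had 8.58 and 9.57. Smooth muscle markers were lower for 4 of 6 and higher for 1, with a ratio of the sums of 0.919. Endothelium markers were lower for 3 of 6 (971 to 985 against 1062 to 1070), and alveolar epithelium markers were higher for 5 of 6 and lower for 1, Hopx (611 to 669 against 129 to 134). The sum of the 4 airway epithelium markers was 27.2 to 33.3 against 3.82 to 5.01, with 2 of 2 tested genes higher and the other 2, Foxj1 and Scgb3a2, at no more than 1 fragment in any library, and mast cell markers were higher for 2 of 4 (19.1 to 20.6 against 12.4 to 13.1). Fibroblast markers were higher for 2 of 4 and lower for 2 (2226 to 2241 against 2117 to 2129), and pericyte markers were higher for 1 of 5 and lower for 1 (745 to 765 against 831 to 851). The part of these cell types in the differences of the channel genes was not tested.

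Partner genes that carry potassium back into the cell, set the calcium that potassium channels oppose or signal to the channels were read from 4 lists of 52 genes. Of these, 48 were tested, 11 were higher and 11 were lower (median log2 fold change 0.02), or 45.8% called against 31.5% of all genes tested. Among auxiliary subunits not named Kcn, 0 of 6 were higher and 3 were lower by limma, namely Abcc8, Lrrc55 and Nos1ap, while Lrrc38 was the 1 gene higher at an unadjusted p under 0.05 and by limma-voom. The call of Abcc8 was kept in 14 of 14 settings, that of Lrrc55 in 7 of 13 and that of Nos1ap in 7 of 14. Leaving out any library but the third sham library lost the call of Lrrc55, and any but the third BPVB library that of Nos1ap. In the list of the potassium pump and cotransporters, 3 of 12 were higher and 4 were lower. Slc12a2, a cotransporter of sodium, potassium and chloride, rose the most (17, 15.1 and 14.7 in the BPVB group against 12.1, 12.4 and 12.4, log2 fold change 0.33, limma adjusted p = 0.0047).

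Of 16 calcium entry and store channels, 5 were higher and 1 was lower. Cacna2d1, an auxiliary subunit of voltage-dependent calcium channels, had 10, 11.4 and 10.1 in the BPVB group against 5.09, 5.44 and 4.67 in the sham group (log2 fold change 0.98, limma adjusted p = 4.1e-05). Cacna1h, a pore of T-type calcium channels, had 1.27, 1.28 and 0.966 against 2.2, 1.99 and 2.71 (-0.74, limma adjusted p = 0.0041). The groups of both genes stood apart. Of 14 receptors and G protein regulators, 3 were higher and 3 were lower. The adenosine receptor Adora1, which opens the channel of Kcnj3 and Kcnj5, rose with 6, 7.14 and 6.2 against 3.63, 3.41 and 5.02 (0.63, limma adjusted p = 0.0077), and Adora2a fell with 2.12, 2.2 and 2.24 against 3.88, 3.91 and 3.37 (-0.65, limma adjusted p = 0.0013).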

How the data were processed

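The authors sequenced RNA libraries of 6 PVs as paired reads of 150 bp and deposited 1 FPKM value per gene and library. The paper names fastp, HISAT, HTSeq-count and DESeq2, and the submitters' processing notes list HISAT2 2.0.5, StringTie 1.3.3b, featureCounts 1.5.0-p3 and DESeq2 1.20.0. The genome build, the annotation and the strand setting are not given in the sources used here. No scaling of the deposited FPKM beyond the library total was found.

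Groups were taken from the sample labels, and the columns were matched to them by letter and number. The labels name no batch. Whole fragments were recovered from the ratios of the FPKM of each gene between libraries, for 100% of 17833 genes, with a relative difference of at most 1.2e-13 between deposited FPKM and that of the whole fragments. They held 99.78% of each library total. Counting intervals treat fragments as independent molecules and cover counting error only. Genes with an average FPKM of 0.1 or more were tested in limma 3.58.1 (R 4.3.3, lmFit and eBayes with trend) on log2(FPKM + 0.5), two-sided, with Benjamini-Hochberg adjustment over 15150 genes. A gene was called at an adjusted p under 0.05. With 3 rats against 3, an exact permutation test of 1 gene cannot go below 0.1, so none was used. The procedure was tested on simulated data.

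Named genes were the called genes with an absolute log2 fold change above 1, the 5 highest in each family, the 3 largest rises and falls among those called in each family, and members known from vessels or atrium. For partners the largest called rise and fall in each list were named, with Abcc8 and Abcc9. Other genes that appear with values, such as Kcnd1, Kcna6, Kcnj4, Kcnh8, Kcnh5, Lrrc38 and the overlapping genes, were chosen after their values were seen. Members, families and lists were chosen with earlier results of these data known. The alternatives were added constants of 1 and 0.1, a mean FPKM of at least 1, no filter, median-of-ratios scaling, quantile normalization, a replicate block, limma-voom on fragments and leaving out each library. All 88 genes matched RefSeq by gene number. Results for some genes are not reported here, and these genes are left out of the figures but not of the counts and sums.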

Additional observations from a re-analysis of the deposited data

How the results depend on the processing

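The 17 calls were recomputed under 14 alternatives. The count of genes higher in the BPVB group was 10 and became 6 when the lowest mean FPKM tested was 1, and it was 8 to 10 when 1 library was left out. The count of lower genes was 7, became 4 under that filter and was 4 to 7 when 1 library was left out, with 4 without the second BPVB library and without the second sham library. Fewer genes are tested at the stricter filter. In the other direction, 10 were lower with quantile normalization (10 higher), 10 with limma-voom (11 higher) and 9 with no filter (11 higher). Limma-voom called 6 tested genes beyond the 17, 3 higher (Kcnd1, Kcnj4 and Kcnma1) and 3 lower (Kcnn3, Kcnq1 and Kcnv2). Genes called with an absolute log2 fold change above 1 numbered 2, against 1 with an added constant of 1, with the stricter filter and with quantile normalization, 7 with a constant of 0.1 and with limma-voom on fragments, and 1 to 3 when 1 library was left out. It was 1 without the first BPVB library and 1 without the second. A larger constant shrinks the fold change of low genes by construction. Of 588 recomputed fold changes of the 43 named genes, 538 kept their direction and side of the threshold, 25 lost the call, 12 gained it and 13 changed sign.

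The changes of sign were in genes near 0 that were not called, and their cause was not tested. Leaving out 1 library moved the log2 fold change from -0.12 to 0.06 for Kcna2, -0.24 to 0.13 for Kcne3, -0.03 to 0.06 for Kcnj12, -0.02 to 0.08 for Kcnj3, -0.30 to 0.07 for Kcnk5, -0.12 to 0.14 for Kcnk6 and -0.08 to 0.02 for Kcnq5. Kcnj12 had -0.01 with median-of-ratios scaling and -0.03 with quantile normalization.

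The labels do not say whether same-numbered libraries of the 2 groups share more than a number. The correlations of their deviations were low, at 0.031, 0.025 and 0.019, although 6 of 6 libraries correlated best with their own number. Whether a number marks a litter or batch is not known. With the replicate block, 10 genes were higher, 5 were lower and 2 passed the fold change of 1, and Kcna1 and Kcnt1 lost the call. Depth limits the genes with few fragments, among them Kcne5, Kcne1, Kcna3 and the 28 genes not tested.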
